A study of Mus musculus with 6 samples.

Results

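The genes that turn plasminogen into plasmin on a cell surface, together with neighbouring brakes on clotting, were compared between lymphatic endothelium (LECs, which form the lining of lymph vessels) of tumours grown in mice and of healthy skin. The members were chosen by name: Plat, Plau, Plaur, Serpine2, Serpinb2, Anxa2, S100a10, Thbd and Tfpi, with every probe set that the platform annotation gives to 1 of these symbols alone. This gave 17 probe sets of 8 genes, among 45037 probe sets and 18193 named genes in all. No probe set carried the symbol Serpine2 alone, and that gene was not analysed here. The 6 samples, each hybridised to 1 Affymetrix expression array, were 3 of normal LECs, taken from mammary skin of healthy balb-c/nude mice, which lack a thymus and its T cells, and 3 of tumour-associated LECs. The latter came from xenografts of MDA-MB-435, human cancer cells injected subcutaneously and left to grow for 8 weeks; the host strain is not named for them. MDA-MB-435 served for years as a model of breast cancer before it was traced to a melanoma. In both groups a short immunostain for LYVE-1, which binds hyaluronan on lymphatic endothelium, guided laser capture microdissection of tissue sections, so a capture can hold other cells. The labels call the replicates biological but tie none to an animal, and the p-values measure only the spread between these samples.

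Urokinase (uPA, encoded by Plau) and tissue plasminogen activator (tPA, encoded by Plat) are serine proteases that cut plasminogen to plasmin, which dissolves fibrin and breaks down matrix. Urokinase is held at the cell surface by its receptor (Plaur), and the complex of annexin A2 and S100A10 binds plasminogen and tPA on endothelium. Serpins block both activators, and thrombomodulin (Thbd) and tissue factor pathway inhibitor (Tfpi) restrain clotting on the vessel wall.

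Plau had the largest difference among the members and was higher in all 3 tumour arrays on both of its probe sets. The main Plat probe set and Thbd were also higher in every tumour array than in any healthy-skin array. Plaur and the main Anxa2 probe set had higher means with overlapping groups, and all 4 Tfpi probe sets had lower means. None of the 17 member probe sets passed limma's test at an adjusted p of 0.05. At an unadjusted p under 0.05, limma gave 4 member probe sets higher in tumours (2 of Plau, 1 of Plat and 1 of Thbd) and 0 lower. Over all probe sets, 2.83% were higher and 3.53% lower at that unadjusted p, and 0.00444% were higher and 0.0% lower at the adjusted one. The members were picked with earlier results of these data known, so their share of 23.5% describes the list and is no test of it. The median difference of the 17 was 0.03 on the log2 scale, against 0.06 for all probe sets.

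Signal was read against a background, the signal that 95% of the 27 bacterial control probe sets of an array stayed under. It lay between 2.96 and 3.81 (log2) in healthy skin and between 3.42 and 3.91 in tumours. Of the 17 member probe sets, 6 were above it on all 6 arrays, 9 on at least 3 arrays and 3 on none. Hybridization controls (9 probe sets for transcripts that the standard array protocol adds) had means between 12.08 and 12.80 in healthy skin and between 12.58 and 13.21 in tumours (log2).

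The brighter Plau probe set, 1422139_at, had signals of 7.68, 4.06 and 4.62 (log2) in healthy-skin replicates 1, 2 and 3, and of 9.68, 9.17 and 8.90 in tumour replicates 1, 2 and 3. All 3 tumour arrays lay above all 3 healthy-skin arrays, and healthy-skin replicate 1 stood well above the other healthy-skin arrays. The means were 5.45 ± 1.95 and 9.25 ± 0.40 (SD, n = 3), a difference of 3.80 with a standard error of 0.91, or 13.9-fold (limma adjusted p = 0.539, unadjusted p = 0.00447). The second probe set, 1422138_at, had 3.29, 2.66 and 2.45 in healthy skin and 5.90, 6.92 and 7.28 in tumours. Here no healthy-skin array was above its background, replicate 1 included, and every tumour array was. The difference was 3.90 with a standard error of 0.44 (95% interval 2.85 to 4.96, limma adjusted p = 0.106, unadjusted p = 5.67e-05), and it ranked 24 of 45037 by p. Counted from the lowest signal above background on the healthy-skin arrays, or the probe set's own signal where higher, it was at least 10.2-fold higher in tumours. By size of the difference, the 2 Plau probe sets ranked 13 and 14 of 45037 from the top.

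The size of the Plau difference moved with single arrays and with the hybridization controls, and its direction did not. The brighter probe set differed by 4.91 without healthy-skin replicate 1 (limma adjusted p = 0.0922), by 3.10 without healthy-skin replicate 2 (limma adjusted p = 0.728), and with the control level of each array as a covariate by 2.07 (limma adjusted p = 0.767). With that covariate the dimmer probe set of Plau differed by 3.51 (limma adjusted p = 0.563), and with a pseudocount of 16, which compresses low signals, by 2.39 (limma adjusted p = 0.356). With each array left out the dimmer one differed by between 3.61 and 4.30.

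Plat, on probe set 1415806_at, had 4.04, 3.36 and 2.46 (log2) in healthy skin and 4.90, 5.41 and 5.17 in tumours. The groups did not overlap, and 1 healthy-skin array was below its background. The difference was 1.88 with a standard error of 0.44, or 3.67-fold (limma adjusted p = 0.533, unadjusted p = 0.00393). The other Plat probe set, 1458553_at, was above background on only 1 array, tumour replicate 3. It had 2.98, 2.81 and 1.85 in healthy skin and 3.18, 2.92 and 4.12 in tumours, and its groups overlapped (difference 0.86, limma adjusted p = 0.848).

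**Figure D1:**
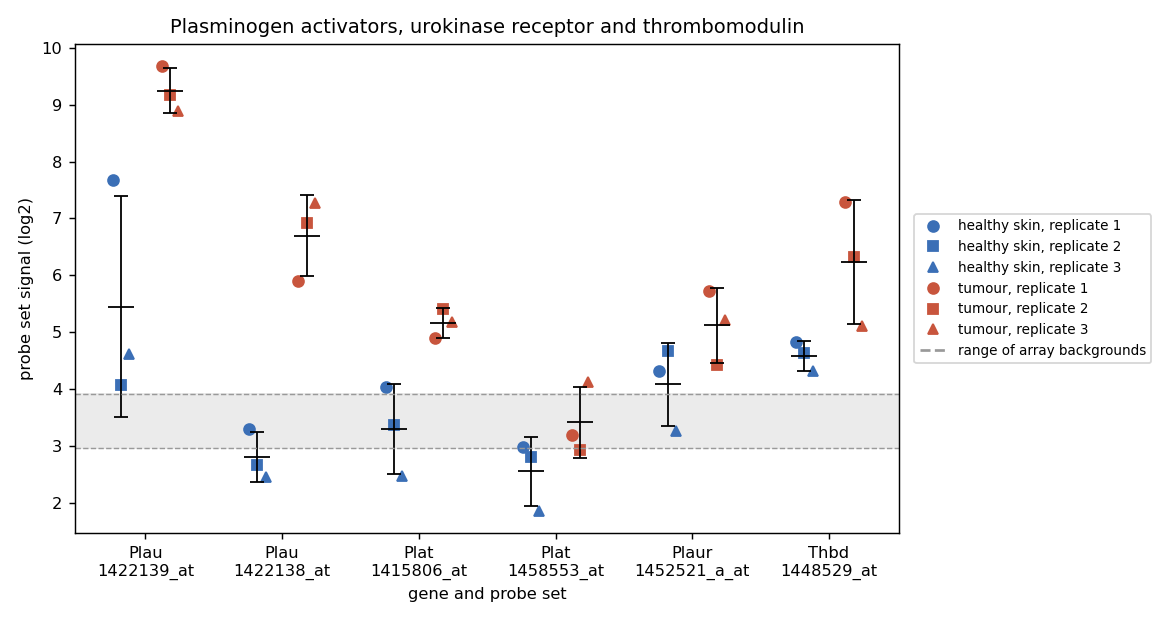
Probe set signal (log2, vertical axis) of Plau, Plat, Plaur and Thbd on each array, with healthy skin in blue and tumours in red. Horizontal ticks and bars are means and SD of 3 arrays, and the grey band spans the backgrounds of the 6 arrays (2.96 to 3.91). Both Plau probe sets lie higher in all tumour arrays, and healthy-skin replicate 1 is at 7.68 on one of them and 3.29 on the other.

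Plaur, which anchors urokinase at the cell surface, had signals of 4.31, 4.67 and 3.26 (log2) in healthy skin and 5.73, 4.42 and 5.22 in tumours on its only probe set, 1452521_a_at. Tumour replicate 2 lay below healthy-skin replicate 2, so the groups overlapped. The difference was 1.05 with a standard error of 0.50 (95% interval -0.14 to 2.23, limma adjusted p = 0.822). It was 0.46 with the control level of each array as a covariate (limma adjusted p = 0.965).

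Serpinb2, which encodes the plasminogen activator inhibitor PAI-2, was not above background on any of the 6 arrays. Its signals were 1.66, 1.31 and 1.14 (log2) in healthy skin and 1.40, 1.28 and 1.00 in tumours, and a difference could not be measured on this probe set.

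RefSeq promoter sequences (build GRCm38.p6) were at hand for Plaur, Anxa2, Serpinb2, Tfpi and Serpine2. They are shown for the urokinase receptor and the plasminogen co-receptor, the members in which the searched motif was found. The motif was TGACTCA, read on both strands, where its other strand is TGAGTCA, the core that AP-1 factors bind. It was picked with these sequences in view. Each line gives the 120 bases before the first listed start site, 5′ to 3′ on the gene's strand, with the motif in capitals.
Plaur: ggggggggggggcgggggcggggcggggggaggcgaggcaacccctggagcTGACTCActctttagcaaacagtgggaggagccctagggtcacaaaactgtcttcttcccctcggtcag
Anxa2: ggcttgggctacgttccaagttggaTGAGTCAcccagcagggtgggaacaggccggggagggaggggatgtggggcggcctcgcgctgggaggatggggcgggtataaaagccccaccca
They lie on the plus strand at chr7:24462363-24462482 and chr9:69453563-69453682. The motif begins 69 bases before the start site of Plaur and 95 before that of Anxa2. Of all 32851 promoters in the table, 2.30% hold it in the same window, and those of Serpinb2, Tfpi and Serpine2 do not. Plaur differed by 1.05 between groups and Anxa2 by 1.11 on its bright probe set, both with overlapping groups (limma adjusted p = 0.822 and 0.868). A link between the motif and these values was not tested.

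Anxa2 had a bright probe set, 1419091_a_at, with 6.85, 7.26 and 6.94 (log2) in healthy skin and 7.36, 9.81 and 7.19 in tumours. Tumour replicate 2 alone stood far apart. Tumour replicate 1 lay just above the highest healthy-skin array, and tumour replicate 3 lay within the healthy-skin range. The difference was 1.11 with a standard error of 0.70 (limma adjusted p = 0.868), and it was 0.26 without tumour replicate 2 (limma adjusted p = 0.879). Both other Anxa2 probe sets were dim. On 1437692_x_at the signals were 3.32, 3.71 and 3.24 in healthy skin, above background on 2 arrays, and 2.94, 3.09 and 2.03 in tumours, above it on none. On 1437691_at no array was above background.

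S100a10, the partner of annexin A2, gave different pictures on its 3 probe sets. The brightest, 1456642_x_at, had 10.78, 10.59 and 10.25 (log2) in healthy skin and 11.18, 10.91 and 7.20 in tumours. Tumour replicates 1 and 2 lay above healthy skin and tumour replicate 3 far below it. The difference was -0.78 with a standard error of 1.02 (limma adjusted p = 0.919), and it turned to 0.50 without tumour replicate 3 (limma adjusted p = 1.0) and to 0.12 with the control level of each array as a covariate (limma adjusted p = 0.996). The suffix _x_at marks a probe set whose probes can match other sequences. On 1416762_at, which carries no such suffix, the arrays had 5.31, 4.92 and 6.37 in healthy skin and 6.10, 5.80 and 5.51 in tumours. All 3 tumour arrays lay inside the healthy-skin range there (difference 0.27, 95% interval -0.76 to 1.29, limma adjusted p = 0.937). The dimmest, 1439348_at, had 4.28, 3.38 and 5.03 in healthy skin and 5.44, 2.49 and 2.52 in tumours, where only replicate 1 was above background (difference -0.75, limma adjusted p = 0.91). That difference was -1.72 without tumour replicate 1 (limma adjusted p = 0.948), -0.25 without tumour replicate 2 (limma adjusted p = 0.964), -0.26 without tumour replicate 3 (limma adjusted p = 1.0), -0.35 without healthy-skin replicate 3 (limma adjusted p = 0.995) and -1.17 without healthy-skin replicate 2 (limma adjusted p = 0.964).

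**Figure D2:**
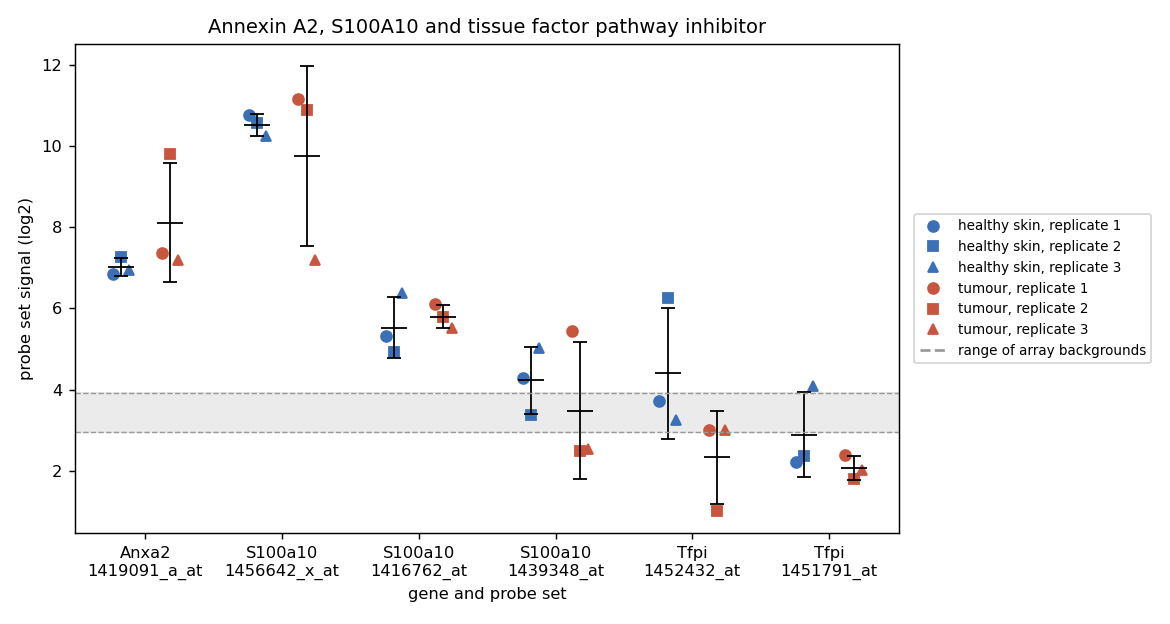
Probe set signal (log2, vertical axis) of Anxa2, S100a10 and the 2 brightest Tfpi probe sets on each array, drawn as for the activators, with means and SD of 3 arrays. Tumour replicate 2 is high for Anxa2 (9.81), and no tumour array is above its background for Tfpi. For S100a10, tumour replicate 3 is low on 1456642_x_at (7.20) and inside the healthy-skin range on 1416762_at (5.51).

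Other annexins and S100 proteins, calcium-binding proteins of the same families, were set beside these on the brightest probe set of each gene. Of 11 annexin and S100 genes, with Anxa2 and S100a10 counted, 9 had their lowest tumour signal in replicate 3 and 1 had its highest there. Over all 18193 genes 26.7% were lowest in that array. That share takes in dim genes, and replicate 3 had the highest background (3.91) and the fewest probe sets above it (39.6%). The share is therefore no matched baseline for these 11 genes, which include S100a10 itself. S100a10 was read here on 1456642_x_at alone, and on its probe set 1416762_at tumour replicate 3 lay inside the healthy-skin range at 5.51 (log2). Relative to the healthy-skin mean on the brightest probe sets, tumour replicate 3 was at -3.34 (log2) for S100a10, -2.58 for Anxa1, -2.55 for Anxa5 and -2.44 for S100a4. Tumour replicate 1 was at 0.64, 0.40, -0.64 and 1.69 for the same genes. The other 7 genes lay nearer to or above the healthy-skin mean in tumour replicate 3: S100a13 was at -0.80, Anxa6 at -0.40, S100a6 at -0.11, Anxa4 at 0.02, Anxa2 at 0.18, Anxa3 at 0.96 and Anxa7 at 2.24. The 10 fibroblast markers also had their lowest mean on that array, 5.69 (log2, 7 of 10 above background), against 8.33 and 8.92 in tumour replicates 1 and 2 and 7.63 to 9.36 in healthy skin. Their part in the annexin and S100 values was not tested. In bulk captures such as these, fewer cells of a type and less RNA per cell cannot be told apart.

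**Figure D3:**
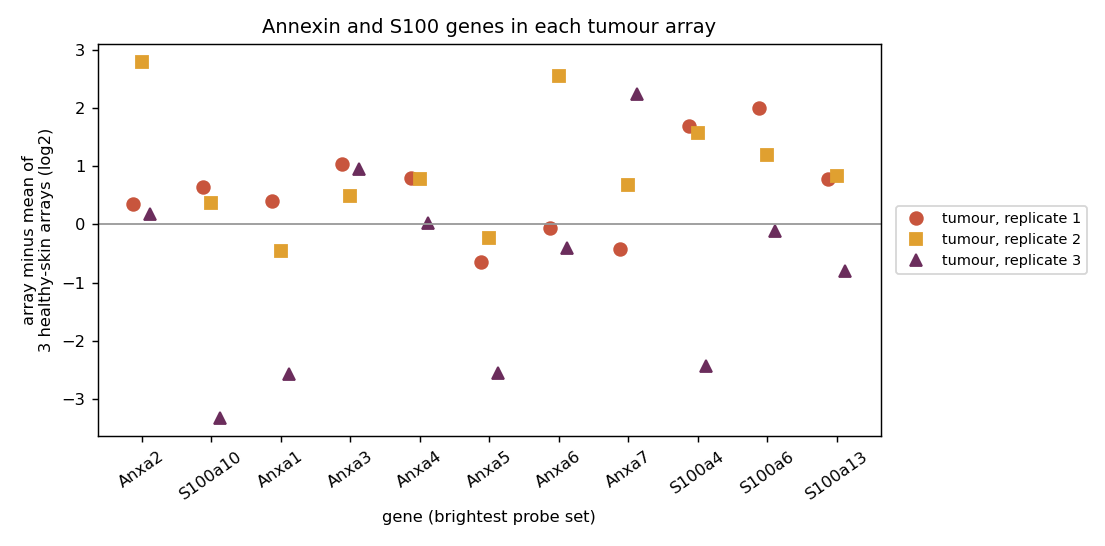
Signal of each tumour array minus the mean of the 3 healthy-skin arrays (log2, vertical axis) for 11 annexin and S100 genes, 1 probe set a gene. Points are single arrays and have no error bars, and replicate 3 is the lowest for 9 genes.

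Thbd encodes thrombomodulin, the endothelial receptor that turns thrombin from a clotting to an anticoagulant enzyme. Its probe set 1448529_at had 4.82, 4.63 and 4.31 (log2) in healthy skin and 7.29, 6.32 and 5.11 in tumours. The groups did not overlap, and the tumour arrays spread over a wider range than the healthy-skin arrays. The difference was 1.66 with a standard error of 0.55, or 3.16-fold (limma adjusted p = 0.699, unadjusted p = 0.0204). Without tumour replicate 1, the highest, it was 1.13 (limma adjusted p = 0.998).

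Tfpi, the inhibitor of the tissue factor pathway, was dim on all 4 probe sets. On the brightest, 1452432_at, healthy skin had 3.71, 6.25 and 3.24 (log2) and tumours 2.99, 1.00 and 3.00. The groups did not overlap, but only healthy-skin replicates 2 and 3 were above background. The difference was -2.06 with a standard error of 0.91 (limma adjusted p = 0.801), and -1.14 without healthy-skin replicate 2 (limma adjusted p = 0.959) and -1.40 without tumour replicate 2 (limma adjusted p = 0.784). The other 3 differed by -0.82, -0.62 and -0.19, with at most 1 array above background each. Without healthy-skin replicate 3, Tfpi 1451791_at differed by -0.21 (limma adjusted p = 0.983) and Tfpi 1438530_at by -0.05 (limma adjusted p = 0.998).

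Counting groups that did not overlap, 4 of the 17 member probe sets were higher in all tumour arrays and 2 were lower, against 6.22% and 4.91% of all probe sets. The lower ones were the dim Tfpi 1452432_at and Anxa2 1437692_x_at, with no tumour array above background.

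**Figure D4:**
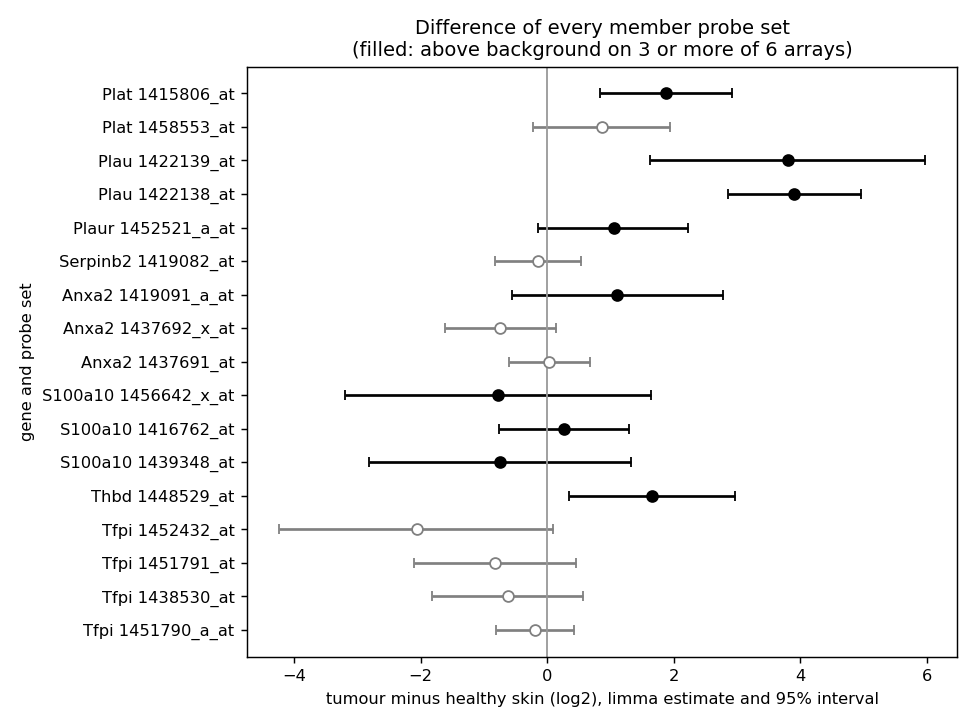
Difference of tumours minus healthy skin (log2, horizontal axis) for the 17 member probe sets, with limma's estimate and 95% interval over 3 arrays per group; filled points were above background on at least 3 of the 6 arrays. The intervals of Plau, Plat 1415806_at and Thbd lie above 0, without adjustment for the number of probe sets tested.

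The remaining genes of plasminogen activation, clotting control and the annexin and S100 families were taken from a list of 50, of which 44 were measured. The others were not analysed here. None of the 44 passed limma's test at an adjusted p of 0.05, and at an unadjusted p under 0.05 there were 4 higher and 0 lower. Over all genes, represented by their brightest probe sets, 3.22% were higher and 4.28% lower at that unadjusted p, and 0.0055% were higher and 0.0% lower at the adjusted one. Groups did not overlap for 6 higher and 1 lower of the 44, against 6.58% and 5.36% of all genes. The list's median difference was 0.30 (log2), with 35 of 44 above 0, against a median of 0.08 and 10432 of 18193 above 0 over all genes. These 35 include genes not above background on any array: Serpini1, Vtn, F8, Serpinf2, F2, F3, Serpina5, Serpinc1, Itgam, Plg and Tfpi2. F2rl2, which was below 0, was not above background on any array either. The count over all genes takes in dim genes as well.

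Among the clotting-control genes, Procr, the endothelial receptor of protein C that works beside thrombomodulin, had the smallest p. It had 3.87, 4.72 and 4.83 (log2) in healthy skin and 7.52, 5.79 and 6.13 in tumours, groups that did not overlap (difference 2.01, standard error 0.52, limma adjusted p = 0.579). Pros1 encodes protein S, the cofactor of activated protein C. It had 7.92, 6.32 and 7.28 in healthy skin and 8.18, 8.89 and 8.13 in tumours, again without overlap (difference 1.23, limma adjusted p = 0.74). Serpind1, the thrombin inhibitor heparin cofactor II, differed by 0.70 (limma adjusted p = 0.789). F3, tissue factor, was not above background on any array.

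Of the plasminogen receptors and inhibitors, Itgb3, the integrin beta 3 subunit, which pairs with the alpha V subunit as a vitronectin receptor, had 3.78, 5.21 and 5.33 (log2) in healthy skin and 6.51, 6.55 and 5.52 in tumours (difference 1.42, limma adjusted p = 0.727). Its second probe set differed by 1.16 (limma adjusted p = 0.713), and neither probe set had overlapping groups. Serping1, the C1 inhibitor, differed by 1.11 with overlapping groups (limma adjusted p = 0.833). St14, the epithelial protease matriptase, which can activate urokinase, differed by -1.11 (limma adjusted p = 0.804). Lrp1, a receptor that clears protease and inhibitor complexes, differed by -1.60 on one probe set and -0.05 on the other (limma adjusted p = 0.868 and 0.996). Plgrkt, a plasminogen receptor, had 3.90, 3.97 and 4.22 in healthy skin and 2.83, 6.10 and 4.62 in tumours, on both sides of healthy skin. Plg, plasminogen itself, which the liver makes, and its product's inhibitor Serpinf2 were not above background on any array. Of the relatives of Anxa2 and S100a10, Anxa3 differed by 0.83 and S100a6 by 1.03 (limma adjusted p = 0.71 and 0.845).

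The 5 genes whose pattern was most like that of the brighter Plau probe set were Nmb (a neuropeptide), Erg (an endothelial transcription factor), Igfbp3 (a binder of insulin-like growth factors), C5ar1 (a complement receptor) and Pbx3 (a homeobox factor). Likeness was the Euclidean distance of mean-centred log2 signals over the 6 arrays, among 18192 genes, and these distances ran from 2.61 to 2.75. The second Plau probe set lay at 2.71 by the same measure, so none of these genes was much nearer than Plau's own other probe set. Erg had 5.78, 3.61 and 4.34 in healthy skin and 7.63, 6.96 and 5.50 in tumours, with replicate 1 the highest healthy-skin array as it was for Plau.

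The captured cells were checked with marker lists on the same arrays, each gene on its brightest probe set. These are lists of mouse genes, and none marks the injected human MDA-MB-435 cells. The part of human RNA in the tumour signals was not tested. The mean of 10 LEC markers was 5.59, 6.37 and 6.79 (log2) in healthy skin and 7.21, 7.60 and 7.46 in tumours. Lyve1, which encodes the stained protein, had 3.21, 7.58 and 6.81 in healthy skin and 9.64, 9.41 and 9.65 in tumours, without overlap. Its difference was 3.70 (limma adjusted p = 0.626). Prox1 and Pecam1 differed by 0.95 and 0.78 with overlapping groups (limma adjusted p = 0.87 and 0.873). In healthy-skin replicate 1, Lyve1 was below background at 3.21, while that array had the highest healthy-skin signal of Plau 1422139_at. Of the 10 LEC markers 8 were above background on that array, and its signal of Plau 1422138_at, 3.29, was not. The mean of 13 pan-endothelial markers was between 4.53 and 4.62 in healthy skin and between 5.88 and 6.01 in tumours, and all 13 differences were above 0. Thrombomodulin and the protein C receptor are endothelial genes too. How far their values, and those of Plau and Plat, followed the higher endothelial signal was not tested. The mean of the 14 keratinocyte markers moved the other way, from between 7.09 and 7.76 to between 4.22 and 5.76. Of these 14, 1 had a difference above 0.

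Macrophages also make urokinase and its receptor. The 13 macrophage markers had means of 5.16, 5.37 and 4.87 (log2) in healthy skin and 5.40, 7.34 and 5.57 in tumours. Of the 13, 12 had differences above 0, with a median of 0.89. Their part in the values of Plau, Plaur and the other members was not tested. Tumour replicate 2 was the highest array for macrophage markers and for Anxa2, and among the tumour arrays it was the lowest for Plaur and the middle one on both Plau probe sets. Without tumour replicate 2 the Plau probe sets differed by 3.84 and 3.79 (limma adjusted p = 0.522 and 0.145). Tumour replicates 1 and 3 also had macrophage means above every healthy-skin array (5.40 and 5.57, against at most 5.37). Leaving out replicate 2 therefore cannot test the part of macrophages. Csf1r, a macrophage receptor, had 8.16, 8.43 and 7.96 in healthy skin and 9.29, 11.24 and 9.52 in tumours. The 8 neutrophil and monocyte markers lay between 3.31 and 3.73 in healthy skin and between 3.70 and 3.81 in tumours. Mast cell markers lay between 2.39 and 3.16 over both groups, with at most 2 of 7 above background. Pericyte and smooth muscle markers had 5.10 to 5.39 in healthy skin and 4.92 to 6.50 in tumours, and adipocyte markers 5.19 to 5.84 and 4.23 to 4.83.

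**Figure D5:**
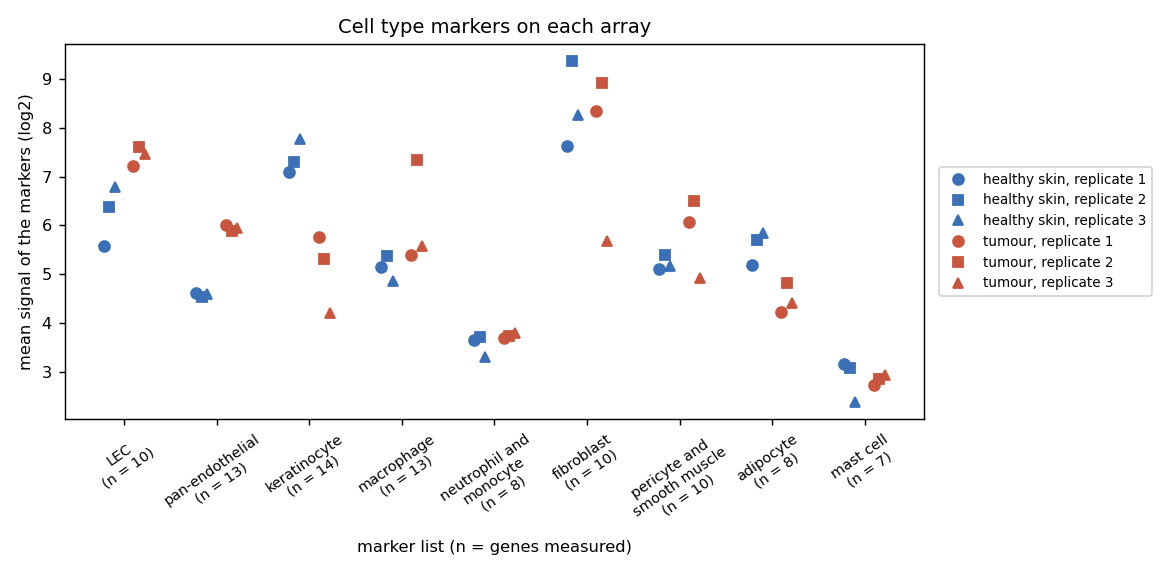
Mean signal (log2, vertical axis) of each cell type marker list on each array, with healthy skin in blue and tumours in red; points are single arrays without error bars and n is the number of genes. Endothelial lists lie higher and keratinocyte lists lower in tumours, macrophage markers are highest in tumour replicate 2 (7.34), and fibroblast markers lowest in tumour replicate 3 (5.69).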

How the data were processed

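Signals of 6 mouse arrays, 3 per group, were analysed. Intensity values of each probe set, linear in scale as judged from their range, were deposited after RMA normalization by the authors, per the submitters' processing notes. For its software and version, nothing is stated in the sources used here. The method normalizes between arrays, which is meant to remove overall differences in RNA amount. Array medians of the values used still lay between 3.25 and 3.45 (log2). The RNA was amplified in 1 round before labelling, per the labels, and the effect of this on the spread was not tested. The log2 of each value was used, with no pseudocount added. The 64 control probe sets were left out and no filter on low signal was used. Gene names came from the platform annotation (34945 probe sets with 1 symbol, 932 with several, 9160 with none), and all 17 member probe sets matched RefSeq by Entrez identifier.

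Tumours were tested against healthy skin, two-sided, by lmFit and eBayes of limma 3.58.1 under R 4.3.3. The prior had 2.82 degrees of freedom, and p-values were adjusted by Benjamini-Hochberg over 45037 probe sets. A gene in a list was represented by its brightest probe set. Members and lists were chosen with earlier results of these data known. All members were named, then from the pathway list the 8 genes with the smallest p and Plg, Plgrkt, Serpinf2, Lrp1, F3 and Procr. The 5 genes most like Plau and the markers Lyve1, Prox1, Pecam1 and Csf1r were also named. Other pathway genes were named only where no array was above background. The number of arrays limits the precision. When changes were planted in data simulated at this spread over 45037 probe sets, the test found 0 of 50 at a log2 size of 1 and 15 at 2, then 30 of 50 at 4 and 44 at 8. Alternatives covered a filter, normalization, centring, a block, eBayes options, array weights, moderation, a covariate, a pseudocount and each array left out.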

Additional observations from a re-analysis of the deposited data

How the results depend on the processing

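Of 247 values of the member differences under the alternatives, 237 kept their direction and none crossed the threshold. The 10 that turned all belonged to Anxa2 1437691_at, which was below background on every array (0.03 as reported), and to S100a10. Anxa2 1437691_at had -0.0023 after centring on array medians, -0.21 with the control level of each array as a covariate, -0.02 after quantile normalization, and between -0.06 and 0.17 with each array left out, below 0 without tumour replicate 1, tumour replicate 3 or healthy-skin replicate 3. S100a10 had 0.37 with array weights (1439348_at, between -1.72 and -0.25 with each array left out) and 0.12 with the covariate (1456642_x_at). With each array left out, 1456642_x_at had between -1.49 and 0.50, above 0 only without tumour replicate 3, and 1416762_at had between -0.04 and 0.69, below 0 only without healthy-skin replicate 2. No member and no pathway gene passed at an adjusted p of 0.05 in any of the fits run. The 4 member probe sets higher at an unadjusted p under 0.05 became 2 with the covariate, Plau 1422138_at and Anxa2 1419091_a_at, of which 1 was shared, and 3 to 5 with each array left out. The pseudocount of 16 brought Plat 1415806_at to 0.98, Plaur to 0.62, Thbd to 1.24 and Tfpi 1452432_at to -0.90. The pairing by replicate number (replicate block) left 4. Same-numbered arrays of the groups share only a number, with correlations of their deviations from the group means of 0.04, 0.10 and -0.01, and not every array correlated best with its own number. Over all probe sets limma called 2, against 22 with array weights, 21 with the filter on dim probe sets, 1 with trend and robust eBayes, 1 without moderation, and 0 with centring, the covariate, the pseudocount of 16 or the replicate block. With each array left out the count was between 0 and 23, the latter without tumour replicate 2, and 0 without any of the other 5. In the 9 fits with 0 called, limma gave between 2167 and 3726 probe sets an unadjusted p under 0.05. The cause of these shifts was not tested. Fewer probe sets were tested under the filter, 22179. Levels at or below background limit Serpinb2, Tfpi and the dim probe sets of Plat and Anxa2.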
